A study of Mus musculus with 39 samples.

Results

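The comparison described here is between FH2 and FH1, the submitters' names for a pair of F4/80-high macrophage gates sorted from the ankles of arthritic HUPO mice. It uses 6 of the 39 libraries of the study, 3 of HUPO FH2 and 3 of HUPO FH1, chosen by the gate name in their labels. HUPO mice, labelled Flipflox/floxCD11ccre, carried floxed alleles of Flip and a Cre recombinase under the CD11c promoter. Flip is the protein encoded by Cflar, an inhibitor of death receptor signalling. Control mice, labelled Flipflox/floxCD11c+ in place of CD11ccre, carried the floxed alleles too, and their FH2 and FH1 gates had 3 libraries each. All animals were C57BL/6 mice of 21 to 37 weeks, and the HUPO animals had established arthritis. Each library was made from over 400 sorted cells. The surface markers that separated FH1 from FH2 are not given in the sources used here. Where a marker of the gates was an MHC class II molecule, its own transcripts would differ by the way the gates were drawn, and this cannot be told apart from other differences in these data.

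Macrophages of the joint lining and the tissue beneath it clear debris and present antigen. MHC class II molecules carry peptides from digested proteins to the cell surface for CD4 T cells. They are assembled with the invariant chain (Cd74), loaded in acidic vesicles with the help of the DM molecule, and transcribed under the control of the coactivator CIITA. In mice, class II level is widely used to separate macrophage subsets within 1 tissue.

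HUPO FH2 libraries held 4336793 to 7729298 counts in 9192 to 9261 detected genes, and HUPO FH1 libraries 5217691 to 9534930 counts in 8895 to 10064 genes. Values below are CPM, counts scaled to a common library total. HUPO libraries are named A, B, C and D in ascending order of the number in their titles: values are given in the order A, B, C for FH2 and A, B, D for FH1, since numbers A and B occur in both gates. Control libraries follow the same ascending order. Over log2 CPM of all genes tested, the correlation between an FH2 and an FH1 library of HUPO mice was 0.73 to 0.78, and within the gates it was 0.76 to 0.77 for FH2 and 0.74 to 0.77 for FH1. The ranges between and within the gates overlapped. Emr1 (Adgre1), the gene of F4/80, was at 973, 1021 and 1314 CPM in FH2 and 1525, 1281 and 1461 in FH1, and the macrophage genes Csf1r, Cd68 and Fcgr1 were present in every library. Cflar, the floxed gene, was at 71.9, 29.3 and 21 CPM in FH2 and 40.5, 37.8 and 96.9 in FH1 (adjusted p = 1). These counts cover the whole gene and do not measure the deletion. Itgax, the gene of CD11c, whose promoter drives the Cre, was at 21.1, 56.5 and 18.2 CPM in FH2 and at 39.4, 0 and 0.144 in FH1.

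Markers of other cells differed between libraries. The summed CPM of 21 neutrophil markers was 364, 1521 and 4968 in HUPO FH2 and 1942, 2410.2 and 10886 in HUPO FH1, so that libraries C and D were the highest of their gates. The authors had already set aside 2 HUPO F4/80-high samples for neutrophil transcripts. The fibroblast list reached 754 CPM in FH1 library D and was at most 73.8 CPM in the other 5. The platelet list was lower in FH2 (596 to 1368 CPM) than in FH1 (1619 to 3904 CPM), nearly all of it from Pf4, a chemokine gene that macrophages also transcribe. The T cell list was higher in FH2 (157 to 315 CPM) than in FH1 (77.8 to 107 CPM), nearly all of it from Il7r. Cd3d, Cd3e, Cd3g and Lck were at 0 in all 6 libraries. The part of these other cells in the gate differences was not tested. With libraries C and D left out, 6 genes were called between the gates, 3 of them class II genes.

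**Figure D1:**
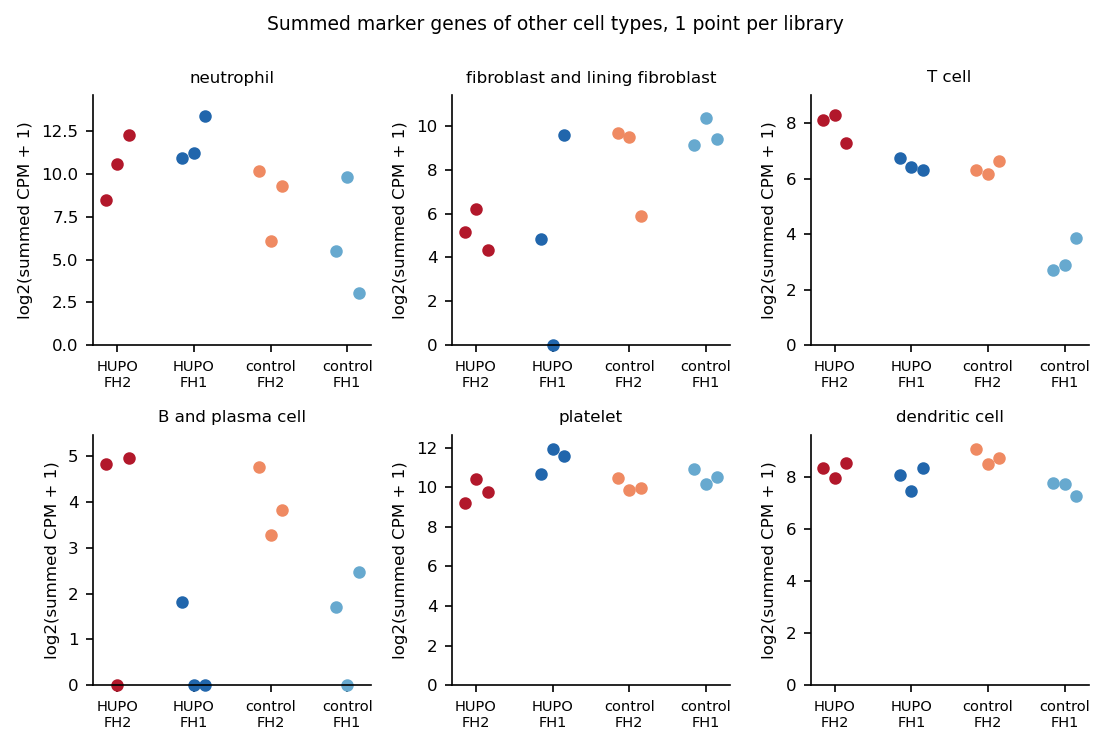
Summed expression of marker lists of other cell types, as log2(summed CPM + 1) on the vertical axis, in each library of the 4 ankle F4/80-high groups (points, n = 3 a group, no error bars). The neutrophil list was highest in HUPO FH1 library D (10886 CPM), and the B cell list was at most 30.2 CPM in HUPO FH2 and 2.5 CPM in HUPO FH1.

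The genes called between FH2 and FH1 of HUPO ankles included 7 of the MHC class II list. Of 12450 genes tested with edgeR's quasi-likelihood test, 10 were called at a Benjamini-Hochberg adjusted p under 0.05, which is 0.0803% of the genes. The 9 called higher in FH2 (0.0723%) were Cd74, H2-Aa, H2-Ab1, H2-Eb1, H2-DMa, H2-DMb1, Ciita, Psap and Gpr141, and the 1 called lower (0.00803%) was Ifi27l2a. At an unadjusted p under 0.05, edgeR's test passed 497 genes, 255 of them higher and 242 lower. The values of the 3 FH2 libraries lay wholly above those of FH1 for 4.69% of all genes tested and wholly below for 5.06%. Both shares were larger among the 3950 genes of 32 CPM or more in all libraries of a gate. Of those, 376 lay wholly above and 316 wholly below. The number of calls varied with the estimate of spread: a fit to the 6 HUPO libraries alone called 3 genes (Cd74, H2-Aa and H2-Ab1), and DESeq2's Wald test called 522, the 10 genes included. Without FH1 library B or D the count was 5 each time.

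The invariant chain gene Cd74 (chromosome 18, 60803849 to 60812652) was at 15102, 20701 and 17329.9 CPM in HUPO FH2 and at 1395, 1114 and 707 CPM in HUPO FH1. Every FH2 library stood far above every FH1 library, and FH1 held 6.05% of the mean FH2 level (log2 change 4.05, SE 0.42, edgeR adjusted p = 1.93e-06). H2-Eb1 (chromosome 17, 34305867 to 34316674), which encodes the beta chain of I-E, was at 2894, 4355 and 4039 CPM in FH2 and 239, 177 and 63.1 in FH1. Its gates did not overlap, and among the FH1 libraries library D was the lowest (log2 change 4.56, SE 0.57, edgeR adjusted p = 3.92e-05). The genes of the I-A alpha and beta chains did not overlap between the gates either. H2-Aa (chromosome 17, 34282744 to 34287823) was at 4522, 7003 and 5364 CPM in FH2 and 444, 288 and 208 in FH1 (log2 change 4.17, SE 0.72, edgeR adjusted p = 0.00508). H2-Ab1 (chromosome 17, 34263227 to 34269418) was at 5589, 6903 and 5609 CPM in FH2 and 481, 478 and 336 in FH1 (log2 change 3.80, SE 0.61, edgeR adjusted p = 0.00225). FH1 thus still carried 4.24% of the FH2 mean of H2-Eb1, 5.57% of H2-Aa and 7.16% of H2-Ab1. In pooled cells, a smaller share of class II-positive cells and less RNA per cell cannot be told apart. Without FH1 library D, H2-Ab1 had an adjusted p of 0.0585 and H2-Aa of 0.137, and without FH1 library B that of H2-Aa was 0.123.

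The genes of the peptide-loading molecule DM differed by smaller factors. H2-DMa (chromosome 17, 34119693 to 34139101) was at 385, 444 and 466 CPM in FH2 and 72.5, 118 and 73 in FH1, 4.93-fold higher in FH2 (log2 change 2.30, SE 0.34, edgeR adjusted p = 0.000508). H2-DMb1 (chromosome 17, 34153191 to 34160229), the beta chain gene, was at 257, 440.1 and 392 CPM in FH2 and 124, 90.7 and 106 in FH1, 3.39-fold higher (log2 change 1.76, SE 0.37, edgeR adjusted p = 0.0498). Neither gene's gates overlapped. The call of H2-DMb1 was lost without any 1 of 5 libraries (all but FH2 library A) and held in 3 of 13 alternatives. H2-DMb1 and its neighbouring copy H2-DMb2 are near-identical, so reads may be split between them. H2-DMb2 was at 0.31, 4.06 and 4.86 CPM in FH2 and 0.227, 0.201 and 2.01 in FH1 and was not called. Ciita (chromosome 16, 10480014 to 10531064), which encodes the coactivator of class II promoters, was at 53.7, 50.4 and 14.6 CPM in FH2 and had 0 counts in all 3 FH1 libraries. In pooled counts, with a floor of 3 counts over the FH1 group, it was at least 299.6-fold higher (adjusted p = 0.033). Its call ended when any 1 library other than FH2 library C was left out, with adjusted p up to 0.305.

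**Figure D2:**
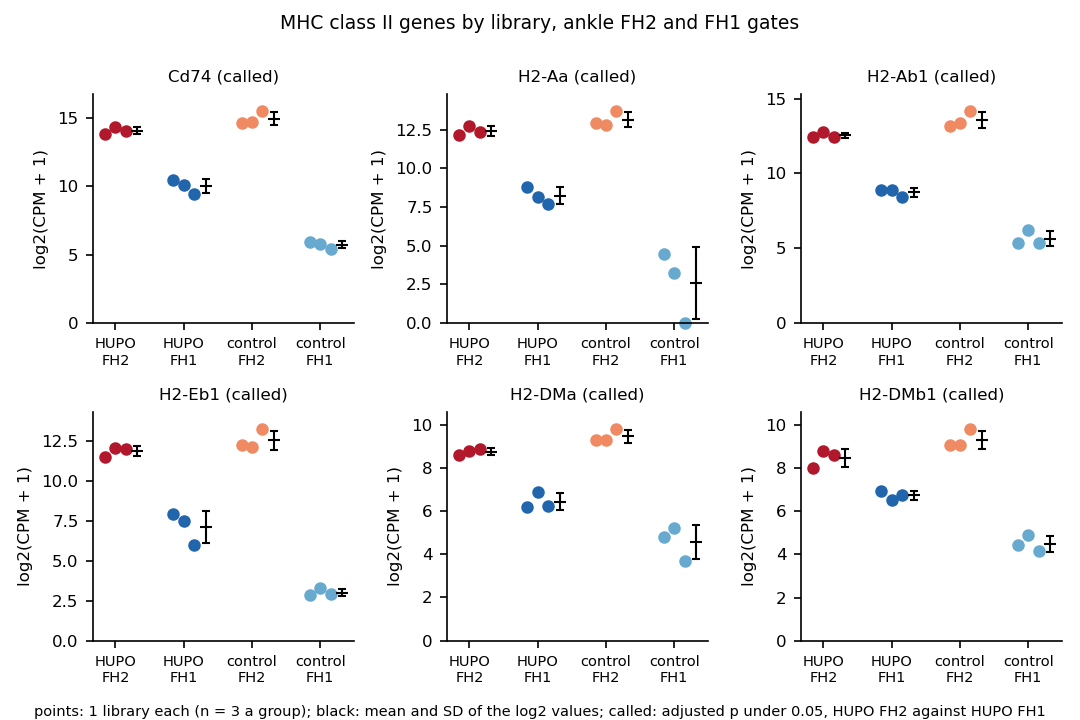
Expression of 6 MHC class II genes as log2(CPM + 1) in each library of HUPO and control FH2 and FH1 (points, n = 3 a group), with the mean and SD of the log2 values in black. In all 6 genes the HUPO FH2 libraries lie above the HUPO FH1 libraries, and HUPO FH1 lies above control FH1.

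Class II promoters are known for a shared module of X and Y boxes, which is why stretches of 3 of the called genes are shown. RefSeq windows (GRCm38.p6) were used for 4 of the called class II genes (H2-Aa, H2-Eb1, H2-DMa and H2-DMb1, the last but one with 2 windows). The 250 bases before each start were searched on both strands for ATTGG, the Y box core, and for CAACNGATG, an X box core. Bases 102 to 31 before the start are printed 5′ to 3′ on the gene's strand, with matches in capitals.
H2-Eb1 (chr17:34305765-34305836, plus strand): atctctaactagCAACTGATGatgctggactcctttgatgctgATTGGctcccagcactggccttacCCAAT
H2-DMb1 (chr17:34153089-34153160, plus strand): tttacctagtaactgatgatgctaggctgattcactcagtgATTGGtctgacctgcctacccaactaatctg
H2-Aa (chr17:34287854-34287925, minus strand): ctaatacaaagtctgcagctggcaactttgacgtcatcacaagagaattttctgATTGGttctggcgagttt
ATTGG occurred 59 bases before the start of H2-Eb1, 61 before that of H2-DMb1 and 48 before that of H2-Aa, counted to its first base, and again on the opposite strand of H2-Eb1, where it reads CCAAT. It was found in 1 of the 2 windows of H2-DMa, 198 bases before the start. CAACNGATG was found in H2-Eb1 alone of these 4 genes, 90 bases before the start. Of 32851 promoter stretches of this length, 33.8% held ATTGG and 0.46% held CAACNGATG. The matches describe these letters and are no evidence of binding.

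Of the 18 genes of the class II list, 17 were tested, 7 rose and 0 fell, with a median log2 fold change of 1.80 beside 0 over all genes tested. In 10 of the 17 the gates did not overlap, all higher in FH2, beside 4.69% of all genes tested. The list was drawn up with earlier results of these data known, so its direction is no independent evidence. Ctss, the protease cathepsin S that trims the invariant chain, was at 18887, 22236 and 16737 CPM in FH2 and 12441, 10619.6 and 10084 in FH1. It did not overlap between the gates and missed the threshold (log2 change 0.80, SE 0.18, edgeR adjusted p = 0.08). Ifi30, a thiol reductase of antigen processing, was at 422, 502 and 502 CPM in FH2 and 346, 267 and 232 in FH1 (adjusted p = 1). March1, a ubiquitin ligase that removes class II from the surface, was at 87.8, 63.2 and 22.8 CPM in FH2 and 13.5, 14.5 and 22 in FH1, without overlap but with wide spread (log2 fold change 1.80, SE 1.14). Of the co-stimulatory genes, Cd86 was at 276, 204 and 168 CPM in FH2 and 179, 55.7 and 51.6 in FH1, Cd80 at 33.1, 22.5 and 13 CPM in FH2 and 33.6, 5.43 and 10.9 in FH1, and Cd40 at 106, 168 and 60.6 CPM in FH2 and 101, 172 and 142 in FH1, all 3 with overlap. H2-Oa and H2-Ea-ps had 0 counts in all 6 libraries, H2-Eb2 had at most 0.312 CPM, and H2-Ob, which encodes a chain of the DM modulator DO, was at 0, 0 and 7.16 CPM in FH2 and 0, 14.1 and 3.74 in FH1.

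Other antigen-presenting cells were looked for in the same libraries. Of 8 B and plasma cell markers, the sum was 30.2 CPM or less in every HUPO FH2 library and 2.5 CPM or less in FH1. Among 16 dendritic cell markers, Clec9a, Ccr7, Siglech and Itgae were at 0 in all 6 libraries, Zbtb46 was at 0 in all 3 FH2 libraries and Flt3 was at 0, 7.18 and 0 CPM in FH2 and 0 in FH1. Cd209a was at 0, 11.6 and 0 CPM in FH2 and 0 in FH1. Batf3 was at 0 in FH2 and 2.27, 0 and 2.3 CPM in FH1. Of the 16 markers, 6 fitted changes were above 0 and 3 below, and none was called. In 1 marker the gates did not overlap, higher in FH2, beside 4.69% of all genes tested. It was Bst2, at 161, 158 and 172 CPM in FH2 and 150, 156 and 147 in FH1. The sum of the dendritic list overlapped between FH2 (251 to 372 CPM) and FH1 (176 to 327 CPM), and most of it came from Bst2 and Cd24a, which macrophages also transcribe.

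Psap (chromosome 10, 60277628 to 60302600), the precursor of the saposins that help lysosomal enzymes degrade sphingolipids, was the called gene of the lysosome list. It was at 7060.3, 7326 and 5820.5 CPM in FH2 and 4005, 3011 and 2819 in FH1, 2.05-fold higher with no overlap (log2 change 1.04, SE 0.17, edgeR adjusted p = 0.00266). Its call was lost without FH1 library B or D and in the fit to 6 libraries. Of the 23 lysosome genes tested, 1 rose and 0 fell, and the median was 0.28 (0 over all genes). The fitted change was above 0 in 20, beside 5580 of all 12450 genes tested. In 7 of the 23 the gates did not overlap, all higher in FH2. Beside this stand 4.69% of all genes tested and 376 of the 3950 genes of 32 CPM or more. Ctsh, an aminopeptidase of the lysosome, was at 626, 902 and 655 CPM in FH2 and 417, 301 and 204 in FH1, and missed the threshold (log2 change 1.24, SE 0.28, edgeR adjusted p = 0.0903). Ctsc, which activates serine proteases, was at 2008, 2358 and 2407 CPM in FH2 and 1639, 1195 and 1387 in FH1, and the alpha-mannosidase gene Man2b1 at 746, 931 and 727 CPM in FH2 and 367, 563 and 500.2 in FH1, neither of them called. Lamp1, a membrane protein of lysosomes, was at 3254, 3243 and 2840.1 CPM in FH2 and 3159.9, 3065 and 2573 in FH1, with overlapping gates. Gm2a, the activator protein of GM2 ganglioside breakdown, was outside the list and was at 627, 878 and 631 CPM in FH2 and 385, 525 and 291 in FH1 (adjusted p = 0.5).

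Ifi27l2a (chromosome 12, 103433873 to 103443680), an interferon-inducible gene, was the gene that fell. It was at 172, 309.6 and 268 CPM in FH2 and at 960.2, 1688 and 1167.5 in FH1. All 3 FH1 libraries were above all 3 FH2 libraries, 5.09-fold by the fit (log2 change -2.35, SE 0.38, edgeR adjusted p = 0.00167). It held in 12 of 13 alternatives and was lost in the fit to 6 libraries (adjusted p = 0.16). The annotation holds a related gene, Ifi27l2b, and reads shared with it were not resolved. No other member of the interferon-stimulated list was called. Of 38 members tested, 0 rose and 1 fell, with a median of 0.20. There were 21 fitted changes above 0, beside 5580 of all 12450 genes tested. Irgm1, an immunity-related GTPase, was at 129.8, 106 and 154 CPM in FH2 and 77.3, 61.1 and 57.2 in FH1, higher in FH2 without overlap and not called. Isg15 was at 45.1, 25.4 and 23.3 CPM in FH2 and 26.4, 19.1 and 11.6 in FH1, with overlap.

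**Figure D3:**
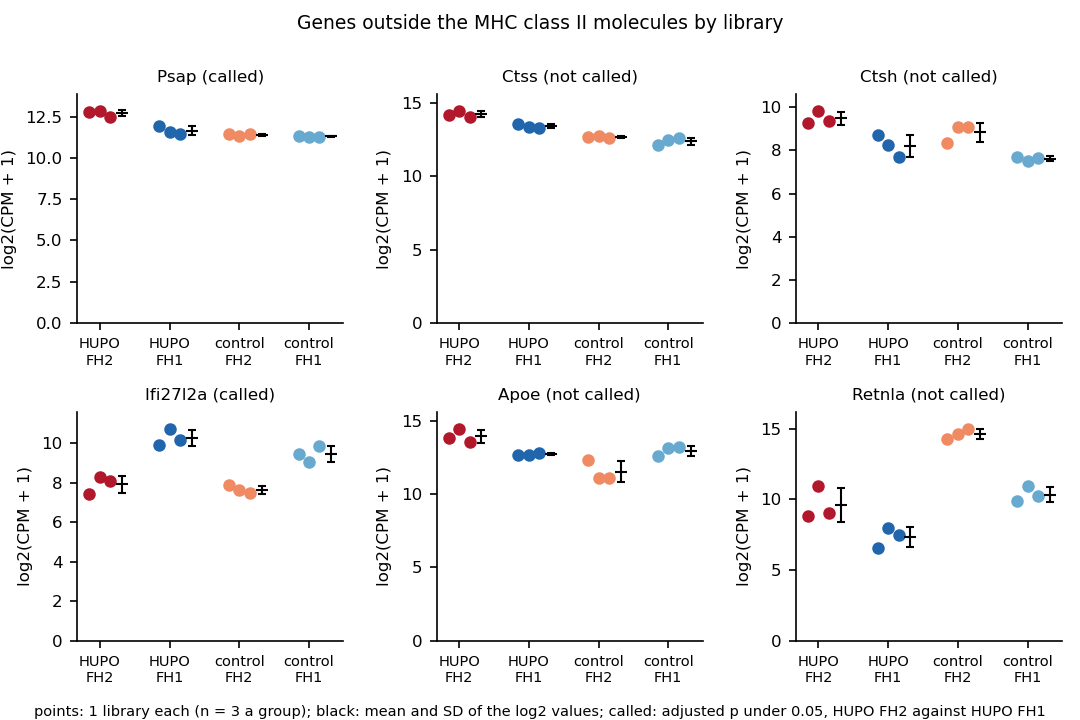
Expression of Psap, Ctss, Ctsh, Ifi27l2a, Apoe and Retnla as log2(CPM + 1) in each library of HUPO and control FH2 and FH1 (points, n = 3 a group), with the mean and SD of the log2 values in black. HUPO FH2 lies above HUPO FH1 in 5 of these genes and below it in Ifi27l2a, and Psap and Ifi27l2a are the called ones.

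Gpr141 (chromosome 13, 19749680 to 19824336), an orphan G protein-coupled receptor gene, was low throughout. It was at 17.3, 21.5 and 6.65 CPM in FH2, and FH1 had 1 count in all (library D). The ratio of the pooled values was 341 with an exact 95% counting interval of 60.7 to 13526, which covers counting error only. Its adjusted p was 0.0498, and it was called in 3 of 13 alternatives. A related gene, Gpr141b, is annotated, and shared reads were not resolved.

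Outside the calls, genes of 32 CPM or more in all libraries of the higher gate, with no overlap, were taken by smallest p, and they are given as values. Higher in FH2 in this way were Ctss, Aif1, Ctsh, Nfil3, Cybb, Plbd1, Ucp2 and Gm2a. Aif1, which encodes the macrophage protein Iba1, was at 328, 378 and 401 CPM in FH2 and 187, 155 and 170.0 in FH1 (log2 change 1.11, SE 0.25, edgeR adjusted p = 0.0903). Cybb, the catalytic subunit of the phagocyte NADPH oxidase, was at 2187, 1959 and 2643 CPM in FH2 and 1511, 1148 and 1094 in FH1. Nfil3, a bZIP transcription factor gene, was at 266, 322 and 253 CPM in FH2 and 111, 18.9 and 107 in FH1, with FH1 library B far below the other 2. Ucp2, a mitochondrial carrier gene, was at 2404, 2665 and 2625 CPM in FH2 and 1917, 1818 and 1599.9 in FH1. The adjusted p-values of these 8 genes were between 0.08 and 0.5.

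Lower in FH2 by the same rule were Myo7a, Acat1, Stk17b, Inpp5k, Gm16517, S100a13, Notch2, Lancl1, Evi2a, Mef2c, Ip6k1, Sepp1, Acin1 and Ier2, none of them called (adjusted p 0.356 to 1). Myo7a, an unconventional myosin, had 0 counts in all 3 FH2 libraries and was at 39.5, 81.2 and 64.1 CPM in FH1. In pooled counts, with a floor of 3 counts over the FH2 group, it was at least 323-fold lower, with an adjusted p of 0.356. Acat1, a mitochondrial thiolase, was at 43.4, 24.2 and 40.7 CPM in FH2 and 100.4, 145 and 140.0 in FH1. Among regulators, the receptor gene Notch2 was at 24.8, 34.7 and 42.5 CPM in FH2 and 76.3, 145 and 129 in FH1 and the transcription factor gene Mef2c at 76.2, 58.7 and 33.8 CPM in FH2 and 118, 257 and 129.8 in FH1. Sepp1 (Selenop), a selenium carrier made by resident macrophages, was at 1467, 1819.5 and 1268 CPM in FH2 and 2045, 4499 and 2433 in FH1.

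No member of the resident and lining macrophage list was called (0 of 29 each way). Its median log2 fold change was -0.40, and 18 fitted changes were below 0, beside 5906 of all 12450 genes tested. In 9 members the FH2 libraries lay wholly below FH1 against 2 wholly above. Over all genes tested these shares were 5.06% and 4.69%. The 2 above were Retnla, whose values are given below, and Cxcr4. Cxcr4, a chemokine receptor gene, was at 92.8, 82.6 and 96.2 CPM in FH2 and 69.3, 61.7 and 69.0 in FH1. Lyve1, a hyaluronan receptor of perivascular macrophages, was at 72.2, 181 and 153 CPM in FH2 and 334, 585 and 324 in FH1. Folr2, the folate receptor beta gene, was at 260.2, 412 and 236 CPM in FH2 and 616, 1317 and 759 in FH1, and Gas6, a bridging ligand in the uptake of dying cells, at 154, 181 and 149.9 CPM in FH2 and 561, 676 and 426 in FH1. The water channel gene Aqp1 was at 165, 108 and 44.5 CPM in FH2 and 413, 479 and 525 in FH1. Lyve1, Folr2, Gas6 and Aqp1 did not overlap between the gates, and none passed the test. These 4, Cxcr4 and, below, Vsig4, Sparc, Arg1, Fabp5, Gpnmb, Spp1, Cd36, Fcgr2b and Ccl2 were chosen after their values were seen, as were Lamp1 and Isg15 above. Cx3cr1, the fractalkine receptor gene, was at 118, 20.1 and 66.8 CPM in FH2 and 0, 5.03 and 21.6 in FH1, Vsig4 at 72.6, 225 and 132 CPM in FH2 and 45.3, 311 and 466 in FH1, and Sparc at 19.7, 56.7 and 14.6 CPM in FH2 and 8.75, 10.1 and 66.3 in FH1, each with overlap.

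Of the interleukin-4 induced list 0 of 17 were called, with a median of 0.26. Retnla, which encodes the secreted protein RELM alpha, was at 448, 1999 and 513 CPM in FH2 and 94.4, 255 and 176 in FH1, without overlap, and FH2 library B stood above the other 2 (log2 change 2.50, SE 1.00, edgeR adjusted p = 1). The lectin gene Mgl2 was at 7.12, 56.4 and 28.7 CPM in FH2 and 0, 2.61 and 0 in FH1, and the chemokine gene Ccl17 at 0.155, 18 and 24.8 CPM against 0 counts in FH1. The receptor gene Flt1 was at 3.41, 15.3 and 29.9 CPM in FH2 and 0, 0 and 1.72 in FH1, and Tgm2, a transglutaminase gene chosen after its values were seen, was at 563, 672 and 685 CPM in FH2 and 364, 139 and 389 in FH1. These 5 were the members whose gates did not overlap, all higher in FH2 and none called, beside 4.69% wholly higher over all genes tested. Arg1, which encodes arginase, overlapped, at 1044, 2465 and 639 CPM in FH2 and 1165, 1187 and 705 in FH1. Pparg, a lipid-sensing nuclear receptor, was at 16.1, 15.1 and 19.2 CPM in FH2 and had 0 counts in FH1 (adjusted p = 1).

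Of the lipid-associated macrophage list 0 of 20 were called, and its median was 0.50. Apoe, the lipid carrier apolipoprotein E, was at 14629.8, 21782 and 11640.4 CPM in FH2 and 6531, 6380.2 and 7093 in FH1, without overlap (log2 change 1.26, SE 0.42, edgeR adjusted p = 0.977). Fabp5, a fatty acid binding protein gene, was at 527, 995 and 439.8 CPM in FH2 and 233, 257 and 191 in FH1 and Gpnmb at 1037, 1092 and 491 CPM in FH2 and 365, 227 and 428 in FH1, both without overlap and not called. Spp1, osteopontin, overlapped (16154, 24979 and 16197 CPM in FH2 and 16953, 8944 and 11945 in FH1). Cd36, a scavenger receptor, was at 1657, 1528 and 1046 CPM in FH2 and 2411, 2851 and 3115 in FH1, wholly lower in FH2 and not called.

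The other pathway lists had no called member in either direction. These were 18 genes of apoptotic cell uptake and scavenging (median 0.12), 17 of complement (-0.21), 30 inflammatory cytokines and NF-kB targets (0.23), and 29 chemokines and their receptors (0). The same held for 27 cell cycle genes (-0.33), 29 of death receptor signalling and apoptosis (0.03), 14 of the osteoclast (0.16), 21 of glycolysis and hypoxia (0.31), and 20 of oxidative phosphorylation (-0.07). The last group covered 29 immediate early and heat shock genes (-0.14), 20 of cholesterol synthesis and efflux (0.11), 25 Fc, Toll-like and lectin receptors (0.29), 17 matrix proteases and inhibitors (0.32), 18 growth factors (-0.22), 29 macrophage transcription factors and receptors (0.17), 15 classical monocyte genes (0.02) and 17 non-classical monocyte genes (-0.04). Beside the monocyte genes, the neutrophil list had 0 of 20 called and a median of -0.64. Of the 29 death receptor and apoptosis genes, 6 lay wholly higher in FH2 and 0 wholly lower. Over all genes tested these shares were 4.69% and 5.06%. The 6 higher members were Pmaip1, Bcl2, Bcl2a1b, Bcl2a1d, Bcl2l11 and Casp9, none of them called. All but Pmaip1 were named after their values were seen. Pmaip1 was at 26.3, 79.8 and 15.6 CPM in FH2 and 12.6, 0 and 0 in FH1. Bcl2 was at 32.5, 26.5 and 29.7 CPM in FH2 and 2.27, 19.3 and 17.5 in FH1. Bcl2a1b was at 197, 234 and 179 CPM in FH2 and 95.9, 60.7 and 104 in FH1. Among single members, the Fc receptor gene Fcgr2b was at 796, 824 and 832 CPM in FH2 and 563, 526 and 615 in FH1, and the beta-glucan receptor gene Clec7a at 733, 485 and 661 CPM in FH2 and 415, 271 and 398 in FH1, both without overlap. The Kruppel-like factor genes lay the other way, with Klf2 at 217, 178 and 176 CPM in FH2 and 379, 270.4 and 388 in FH1 and Klf4 at 193, 179 and 148 CPM in FH2 and 243, 339 and 275 in FH1. The chemokine gene Ccl2 was at 173, 338 and 178 CPM in FH2 and 316, 659.6 and 517 in FH1, with overlap.

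**Figure D4:**
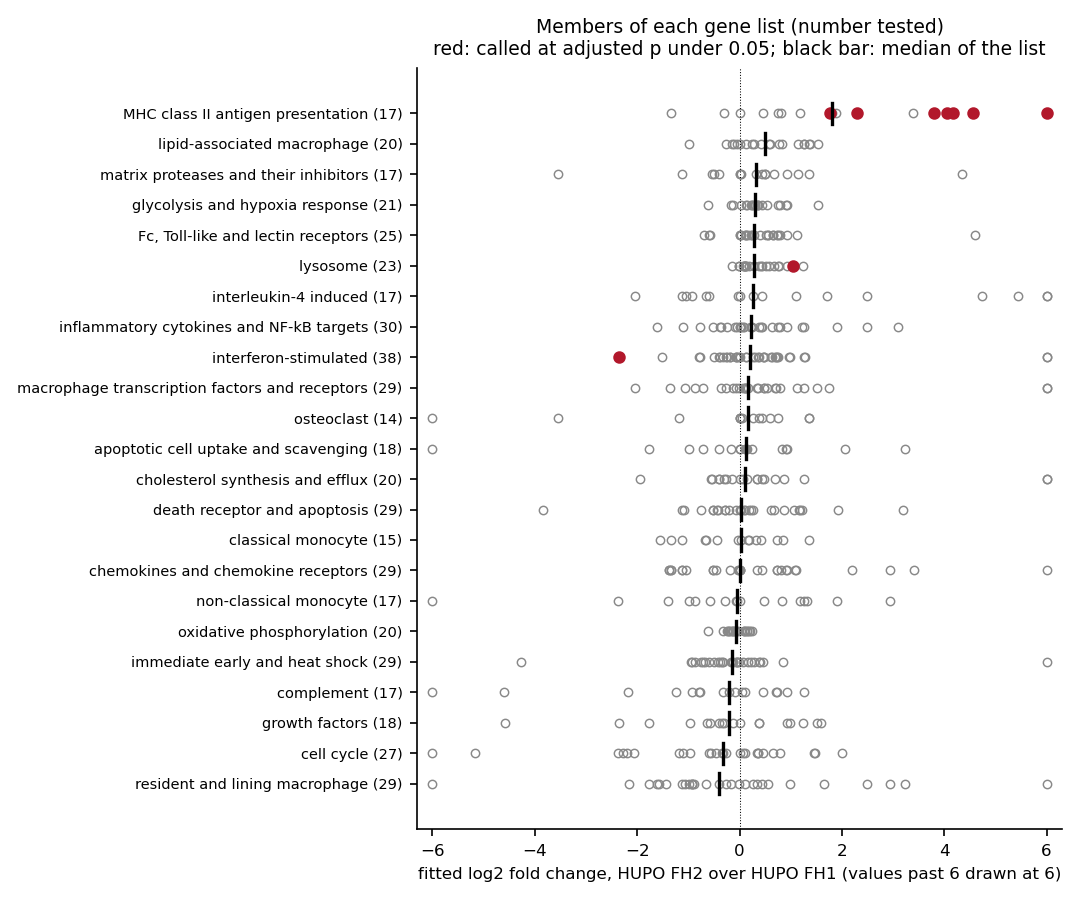
Fitted log2 fold change of each tested member (circles) of the 23 pathway lists, HUPO FH2 over HUPO FH1, with the list's median as a black bar and called members in red. The class II list has 7 called members and a median of 1.80, and called members elsewhere are Psap (lysosome) and Ifi27l2a (interferon-stimulated).

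The control ankles show how the gates differ in mice without the Cre. The HUPO animals had established arthritis, so the Cre and the arthritis cannot be told apart in a comparison with control. There, 54 of 12450 genes were called (0.434%), 53 higher in FH2 and 1 lower. Of the 10 genes called in HUPO, 8 were called in control too, all in the same direction. They are 80% of the HUPO calls and 14.8% of the control calls: the 7 class II genes and Ifi27l2a. The difference of the gate difference between genotypes, tested in the same fit, was called for 23 genes (0.185%), 22 with a smaller FH2 excess in HUPO and 1 with a larger one. The median of this difference over all genes was -0.13 on the log2 scale, and the values below are not corrected for it. Of the 10 HUPO calls, 6 had such a difference, and all 6 are class II genes.

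For 6 class II genes the fitted gate difference was smaller in HUPO than in control. Control FH1 held 59.6, 54.8 and 42 CPM of Cd74 and control FH2 25649, 27016 and 46698 CPM, so that the log2 fold change between gates was 9.31 in control and 4.05 in HUPO (difference -5.26, SE 0.57, edgeR adjusted p = 3.47e-06). In control, FH1 had 0.157% of the FH2 level, beside 6.05% in HUPO. The lowest and highest groups were the control gates, and both HUPO gates lay between them for this gene. H2-Eb1 was at 6.13, 8.68 and 6.48 CPM in control FH1 and 4827, 4517 and 9661 in control FH2 (difference -5.24, SE 0.76, edgeR adjusted p = 0.000378). H2-Aa was at 21.4, 8.31 and 0 CPM in control FH1 and 7772, 7159 and 13294 in control FH2 (difference -5.61, SE 0.97, edgeR adjusted p = 0.00407). H2-Ab1 differed in the same way (difference -4.18, SE 0.81, edgeR adjusted p = 0.0157), as did H2-DMa (difference -2.51, SE 0.47, edgeR adjusted p = 0.00817) and H2-DMb1 (difference -3.13, SE 0.52, edgeR adjusted p = 0.00282). The call of H2-Ab1 ended without HUPO FH2 library A or C, or without 1 of 3 control libraries (the highest-numbered of FH2 and the lowest and highest of FH1), with adjusted p up to 0.0674, and that of H2-DMa ended in the fit to 12 libraries (adjusted p = 0.0723). The 7 called class II genes together came to 1494 to 2756 CPM in HUPO FH1 and 116 to 209.6 CPM in control FH1. In FH2 their sum was 28802 to 39896 CPM in HUPO and 48864 to 89835 CPM in control. The dendritic cell list was at 361 to 546 CPM in control FH2 and 155 to 217 CPM in control FH1, without overlap. The T cell list was at 70.7 to 99.4 CPM in control FH2 and 5.52 to 13.7 CPM in control FH1. The B and plasma cell list was at 8.65 to 26.2 CPM in control FH2 and 0 to 4.56 CPM in control FH1. The part of such cells in the differences between genotypes was not tested.

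Ciita was at 7.22, 62.9 and 109 CPM in control FH2 and had 1 count in control FH1, and the difference between genotypes was not called (adjusted p = 1). With 0 and 1 counts in the FH1 gates, these data cannot resolve a change of Ciita there: 3 counts correspond to 0.145 CPM over HUPO FH1 and 0.117 CPM over control FH1. Psap had a fitted log2 fold change of 0.11 between the control gates, with 2839, 2604 and 2785 CPM in FH2 and 2624, 2462 and 2529 in FH1, but its difference between genotypes was not called (difference 0.93, SE 0.25, edgeR adjusted p = 0.191). Ifi27l2a was at 234, 195 and 176 CPM in control FH2 and 699.6, 524 and 925 in control FH1, again lower in FH2. Apoe lay the other way in control, at 5186, 2198 and 2197 CPM in FH2 and 6005, 8895 and 9171 in FH1, and its difference missed the threshold (difference 2.59, SE 0.59, edgeR adjusted p = 0.0618).

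**Figure D5:**
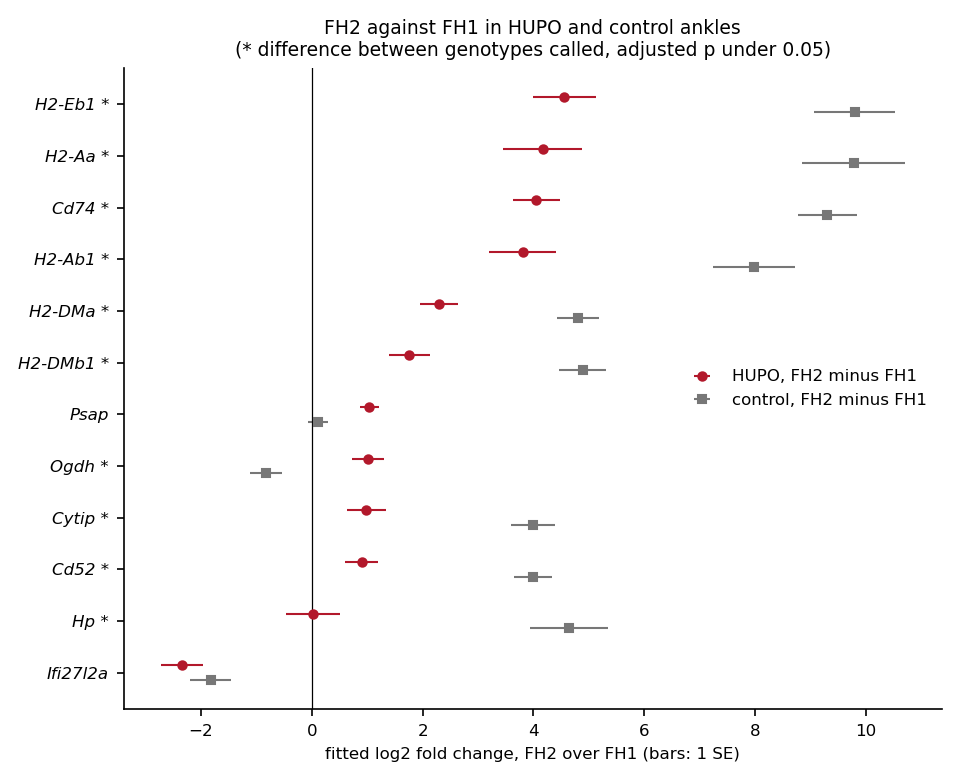
Fitted log2 fold change of FH2 over FH1 in HUPO (red circles) and control ankles (grey squares), bars 1 SE, for genes called in HUPO or named for a called difference, leaving out genes with 3 counts or fewer in a group. The 6 class II genes lie between 1.76 and 4.56 in HUPO and between 4.81 and 9.80 in control, and stars mark a called difference.

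Outside the class II genes, 5 further named genes had a smaller FH2 excess in HUPO. Cd52, a surface glycoprotein of leukocytes, was at 451, 573 and 619.9 CPM in HUPO FH2 and 335, 174 and 369 in HUPO FH1, and at 488, 329 and 390.1 CPM in control FH2 and 32.2, 32.8 and 9.6 in control FH1 (difference -3.09, SE 0.43, edgeR adjusted p = 0.000162). The log2 fold change of FH2 over FH1 was 0.90 in HUPO and 3.99 in control. Cytip, a cytohesin-binding adaptor, was at 385, 149 and 365 CPM in HUPO FH2 and 247, 74 and 132 in HUPO FH1 and at 202, 203 and 268 CPM in control FH2 and 18.4, 7.09 and 16.8 in control FH1 (difference -3.01, SE 0.51, edgeR adjusted p = 0.00282). Plbd1, a phospholipase B-like gene, was at 105, 101 and 158 CPM in HUPO FH2 and 60.9, 2.41 and 27.9 in HUPO FH1, and at 142, 56.9 and 181 in control FH2 with 0 counts in control FH1 (adjusted p of the difference 1.86e-05). Traf1, an adaptor of TNF receptor signalling, was at 148, 64.3 and 56.5 CPM in HUPO FH2 and 116, 27.3 and 17.5 in HUPO FH1 and at 113, 27.6 and 85.5 in control FH2 with 1 count in control FH1 (adjusted p of the difference 0.00374). Hp, haptoglobin, was at 76.7, 133 and 152 CPM in HUPO FH2 and 86.3, 98.3 and 171 in HUPO FH1 and at 21, 2.58 and 19.8 CPM in control FH2 and 1.21, 0 and 0 in control FH1 (difference -4.62, SE 0.86, edgeR adjusted p = 0.00817). The neutrophil list was at 1942 to 10886 CPM in HUPO FH1 and 7.2 to 924 CPM in control FH1, and its part in these differences was not tested. The 1 called gene with a larger FH2 excess in HUPO was Ogdh, a subunit of the oxoglutarate dehydrogenase complex. It was at 389.8, 279.6 and 261 CPM in HUPO FH2 and 158, 157 and 149 in HUPO FH1 and at 195, 196 and 155 CPM in control FH2 and 266, 328 and 376 in control FH1 (difference 1.83, SE 0.41, edgeR adjusted p = 0.0474). Its call was lost without any 1 of 11 of the 12 libraries.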

How the data were processed

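RNA from sorted ankle macrophages was sequenced as single reads of 75 bases on a NextSeq 500 after SMART-Seq v4 and Nextera XT preparation, per the labels' protocols. The deposited values are raw counts per gene symbol, 1 table a library, with 23337 symbols. The submitters' processing notes list the tools STAR, HTSeq, Cufflinks and FastQC and the build mm10, giving neither versions nor roles. No strand step is stated, so overlapping and antisense genes were not separated. Per the series' design text, the authors had removed libraries of low quality, with poor correlation or with neutrophil transcripts, which lowers the spread that remains.

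From the counts, edgeR 4.0.16 (R 4.3.3) fitted 1 mean per group to all 39 libraries of 13 groups, with TMM scaling, filterByExpr (12450 genes kept), a trended dispersion and a robust quasi-likelihood fit with 26 residual degrees of freedom. Tests were 2-sided, with Benjamini-Hochberg adjustment over all genes tested, and a gene was called at an adjusted p under 0.05. The contrasts were HUPO FH2 minus FH1, control FH2 minus FH1 and their difference. The labels do not say how many animals gave a library, so p-values measure the spread between libraries. CPM used TMM-scaled totals. Counting intervals are exact at 95% and, like the floor of 3 counts over a group, cover counting error only. Alternatives were DESeq2 1.42.0 (Wald test, and its size factors in edgeR), no filter, the legacy quasi-likelihood method, fits to the 6 or 12 libraries of these gates, a replicate block, and leaving out libraries.

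The comparison, its 23 pathway lists and 13 marker lists (674 entries, 8 unmatched) and the rule for named genes were chosen with earlier results of these data known. The rule took the class II list and the checks of genotype and cell type. It then took up to 15 genes in each direction of 32 CPM or more in all libraries of the higher gate, with no overlap, called genes first, up to 4 members a list by smallest p, and up to 10 genes in each direction of the difference between genotypes. Genes outside it are named as such. Coordinates and promoter sequences are from RefSeq, GRCm38.p6.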

Additional observations from a re-analysis of the deposited data

Results flagged for a closer look

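The gate difference (FH2 over FH1, log2) differed between HUPO and control by the test of the difference itself, in edgeR's quasi-likelihood fit, for 12 of the named genes. Among class II genes the difference was -5.26 for Cd74 (adjusted p = 3.47e-06), -5.24 for H2-Eb1 (adjusted p = 0.000378), -5.61 for H2-Aa (adjusted p = 0.00407), -4.18 for H2-Ab1 (adjusted p = 0.0157), -3.13 for H2-DMb1 (adjusted p = 0.00282) and -2.51 for H2-DMa (adjusted p = 0.00817). Negative values mean a smaller FH2 excess in HUPO.

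Outside that pathway it was -3.09 for Cd52 (adjusted p = 0.000162), -3.01 for Cytip (adjusted p = 0.00282) and -4.62 for Hp (adjusted p = 0.00817). For Plbd1 the fitted value was -10.84 (adjusted p = 1.86e-05) and for Traf1 it was -9.59 (adjusted p = 0.00374), but control FH1 held 0 counts of Plbd1 and 1 count of Traf1, so the sizes depend on the prior count and are no bounds. Ogdh was the gene with a larger FH2 excess in HUPO (1.83, adjusted p = 0.0474), and it was called in 5 of 19 alternatives. Cd74 was called in all 19, H2-Eb1, H2-DMb1, Cytip, Traf1 and H2-Aa in 18, Plbd1, Cd52 and H2-DMa in 17, Hp in 16 and H2-Ab1 in 12. The fit to 12 libraries ended the calls of Plbd1, Cd52, Cytip, H2-DMa and Hp. Hp also lost its call without the middle control FH1 library by title number (adjusted p = 0.054).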

How the results depend on the processing

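No direction reversed under any alternative run. With DESeq2's Wald test the calls were 522 in HUPO, 538 in control and 591 for the difference between genotypes, against 10, 54 and 23. The fit to the 6 HUPO libraries called 3 genes, all 3 of the class II list. Leaving out the library of each gate highest in neutrophil markers (A and B alone kept), 6 genes were called in HUPO, 3 of the class II list, and 15 for the difference. The neutrophil sums of the libraries kept were 364 and 1521 CPM in FH2 and 1942 and 2410.2 CPM in FH1. Dropping each library in turn left 5 to 12 calls in HUPO, 31 to 50 in control and 12 to 22 for the difference, and 3 to 6 called class II genes. Without HUPO FH1 library B there were 5 HUPO calls and 4 class II genes, without HUPO FH1 library D 5 and 3. The difference had 14 calls without HUPO FH2 library B or the middle control FH1 library by title number and 12 without the lowest-numbered control FH1 library, which also gave the 31 in control. The runs without a control library were chosen after seeing the data. With the title number as a replicate block there were 8 calls in HUPO, 25 in control and 6 for the difference. Of the 12 differences named above, the block kept those of Cd74 (adjusted p = 0.0109) and Cytip, and it ended those of the other 5 class II genes (adjusted p up to 0.715) and of Plbd1, Cd52, Traf1, Hp and Ogdh. The numbers are not said to mark animals, and same-numbered HUPO libraries had deviations correlated at 0.037 and 0.028 (2 pairs). Differently numbered pairs of an FH2 and an FH1 library ranged from -0.020 to 0.031, the highest being FH2 library C with FH1 library D. The other alternatives stayed within 1.5 times of these counts. The cause of these shifts was not tested. Depth limits genes near the floor of 0.179 CPM in HUPO FH2 and 0.145 CPM in HUPO FH1.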

Other observations

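Sex-linked transcripts separated the HUPO libraries by the number in their titles and not by gate. Xist, the RNA of the inactive X chromosome, was at 0 in library A of both gates, and at 51.7 and 174 CPM in FH2 libraries B and C and 212 and 158 CPM in FH1 libraries B and D. Ddx3y, a gene of the Y chromosome, was at 94.0 CPM in FH2 library A and 54.4 CPM in FH1 library A, and had 0 counts in the other 4 libraries. Each gate thus held 1 library with Ddx3y and 2 with Xist. Of the 6 genes of the sex-linked list, 3 or 4 were at 0 in each HUPO library. In the control libraries 1, 4 and 2 of them were at 0 in FH2 and 3, 4 and 4 in FH1. The part of this make-up in the differences between genotypes was not tested.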
